A study of Mus musculus with 11 samples.

Results

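The genes described here are linked, singly or through their family, to phosphatidylserine. Some place it on the outer face of the cell membrane, some return it to the inner face, and some help clear cells that display it. Not all members need act on this lipid, and phosphatidylserine genes is used below as a short name for them. They were chosen by name: the Plscr, Ano and Xkr families, the P4-ATPases named Atp8, Atp9, Atp10 and Atp11, and 15 further symbols for flippase subunits, bridging proteins, receptors and engulfment proteins. The rule found 43 genes in both deposited tables, out of 19259 genes in the table of the ANXA2 knockout and 19801 in that of the ANXA5 knockout. RNA had been sequenced from primary mesenchymal stromal cells of the bone marrow of C57/BL6 mice, and all 11 libraries came from untreated cells. Wild type cells gave 4 of them, ANXA2 knockout cells 3 and ANXA5 knockout cells 4, and the labels give no age, no sex and no account of how either allele was made. Each knockout was compared with the same 4 wild type libraries, so the comparisons with wild type share their controls. The labels do not say that the libraries of a group came from separate animals or cultures, so p-values measure only how far these samples spread, and part of that may be technical.

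In a resting cell, phosphatidylserine is kept on the inner leaflet of the plasma membrane by flippases, ATP-driven pumps that mostly need a CDC50 partner (Tmem30a or Tmem30b) to leave the endoplasmic reticulum. Scramblases let lipids pass both ways and expose phosphatidylserine: Ano6 when calcium rises and Xkr8 after cleavage by caspases during cell death. Exposed phosphatidylserine is an eat-me signal. Bridging proteins such as Gas6, Pros1 and Mfge8 bind it and link it to receptors on the engulfing cell, among them the TAM kinases Axl, Mertk and Tyro3, and Elmo and Dock proteins then activate Rac1 to form the phagocytic cup. ANXA2 and ANXA5 are annexins, which bind phosphatidylserine in the presence of calcium, and labelled annexin A5 is a common stain for dying cells.

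The libraries held 23.3 to 35.7 M reads over the genes of the tables. Anxa2 stood at 28.6% of its wild type mean in the ANXA2 knockout and Anxa5 at 9.24% in the ANXA5 knockout, and the knockout libraries lay below all wild type libraries in both cases. All 12 stromal markers examined were present in every group, and their summed level ran from 564452 to 869764 normalised reads in the ANXA2 knockout against 394159 to 764277 in the wild type. In the ANXA5 table the sum was 627980 to 913735 against 431076 to 844110. By group means, the collagen genes Col1a1 and Col1a2 made up most of the stromal sum in both comparisons. Markers of blood cells were present too: 8 neutrophil markers summed to 260303 to 632479 against 281484 to 501627 in the ANXA2 table and to 432103 to 598784 against 307848 to 550058 in the ANXA5 table. Xist, the RNA of the silenced X chromosome of female cells, stood at 0.959 to 2.07 normalised reads in wild type libraries 3 and 4 and ANXA5 knockout library 2 and at 203 to 2186 in the others. In these bulk samples, fewer cells of a type and less RNA per cell cannot be told apart.

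In the wild type, Gas6, Axl, Calr, Rac1, Lrp1, Mfge8 and Pros1 all had means above those of every scramblase and flippase. They are among the genes that read or relay a phosphatidylserine signal. The other receptors and engulfment genes, Elmo1, Elmo2, Dock1, Mertk, Tyro3 and Timd4, had means below those of the scramblases Plscr3 and Ano6. Levels are compared between genes as reads scaled to a common library total (CPM) per kilobase of exon (CPM per kb), with exon lengths from GENCODE vM21. Gas6, the ligand that binds phosphatidylserine and TAM receptors, had the highest mean, 282 ± 47.9 (SD, n = 4), followed by the TAM receptor Axl at 267 ± 50.6 and calreticulin (Calr), a chaperone that also serves as an eat-me signal, at 227 ± 26.5. The ranges of these 3 genes overlapped, so their order is not beyond the spread of the libraries. Rac1, the GTPase of the engulfment pathway, stood at 94.7 ± 3.23, and Lrp1, a large scavenger receptor that works with calreticulin, at 92.5 ± 12.6, which likewise overlapped. The bridging proteins Mfge8 and Pros1 came next, at 67.4 ± 1.04 and 59.3 ± 6.01. Elmo2, Elmo1 and Dock1 stood at 20.5 ± 1.84, 9.40 ± 0.809 and 8.17 ± 1.13. The median over 18639 genes was 2.54.

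The TAM receptors were unequal. Mertk stood at 2.36 ± 0.455 CPM per kb and Tyro3 at 2.05 ± 0.275, while Axl made up 45.2% of the summed level of the 6 receptors and eat-me signals. Timd4, a phosphatidylserine receptor of resident macrophages, was near the bottom at 0.214 ± 0.146. Gas6 made up 69.0% of the 3 bridging proteins.

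Among scramblase families, Plscr3 (25.05 ± 3.23), Ano6 (21.9 ± 1.43) and Plscr1 (21.7 ± 1.499) had the highest levels, and their libraries overlapped. Plscr4 stood at 16.6 ± 3.77 and Plscr2 at 0.402 ± 0.0731. Ano6 held 48.8% of the summed level of the 8 anoctamins, ahead of Ano10 (12.2 ± 0.608), Ano8 (5.73 ± 0.700) and the calcium-activated chloride channel Ano1 (4.25 ± 0.995). Ano2, Ano3, Ano4 and Ano7 had means of 0.109 to 0.327. Xkr8, the caspase-activated scramblase, held 68.9% of the Xkr sum at 1.53 ± 0.304, and Xkr4, Xkr5 and Xkr6 had means of 0.0995 to 0.427.

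The flippases were spread more evenly. Atp8b2 was highest at 21.2 ± 2.39 CPM per kb, followed by Atp11b (13.4 ± 0.994), Atp10a (11.9 ± 1.72), Atp11a (10.5 ± 3.45) and Atp8b4 (9.12 ± 1.51). Atp8a1 stood at 3.04 ± 0.632 and Atp8b1 at 5.63 ± 1.14. Atp8a2, best known from neurons, stood at 0.115 ± 0.0150 and Atp8b5 at 0.0210 ± 0.00985. The shared subunit Tmem30a was more abundant than any of its pumps at 33.1 ± 4.23, and Tmem30b stood at 7.78 ± 1.35. Atp9a (10.9 ± 1.79) and Atp9b (6.22 ± 0.495), endosomal and Golgi relatives that work without a CDC50 subunit, completed the pumps. The median coefficient of variation over wild type libraries was 15.4% for the 42 genes above the filter on low values, and Ano4 had the highest value, 108%.

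**Figure D1:**
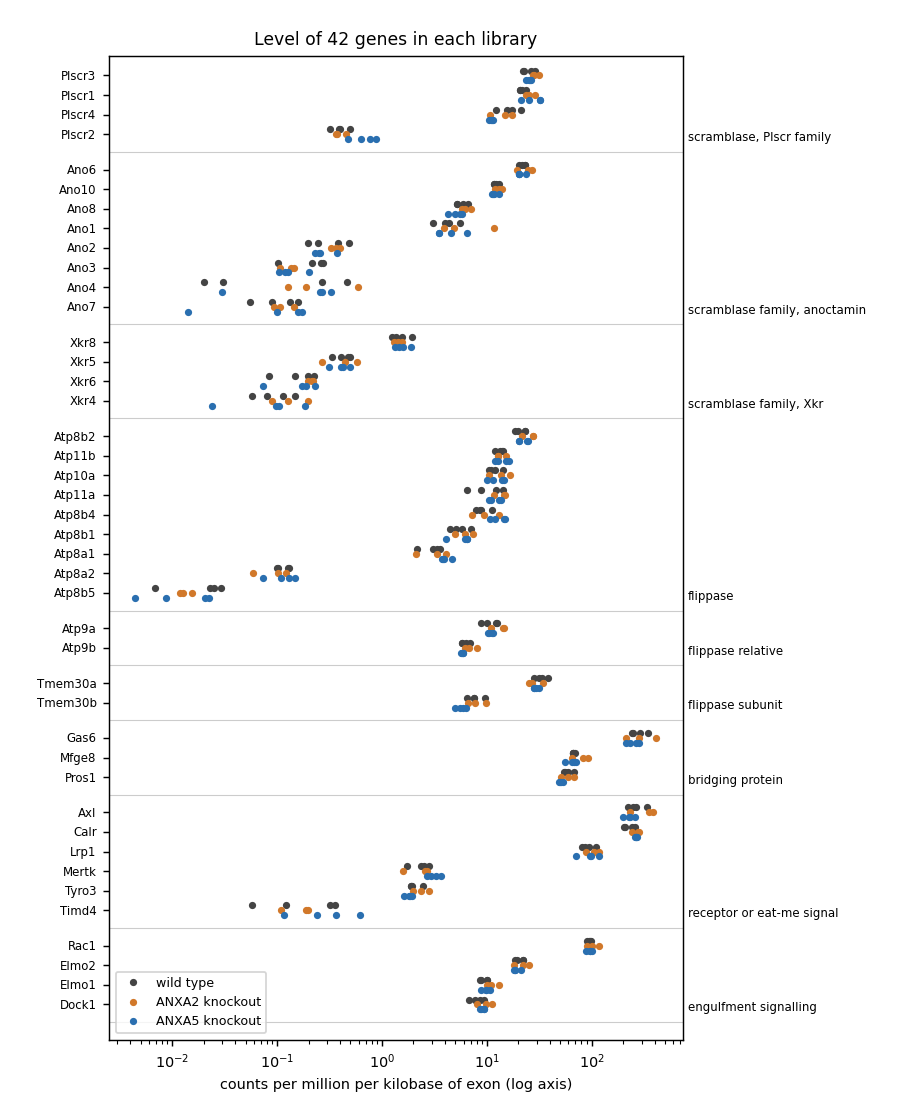
Level of 42 of the 43 genes in each library, as CPM per kb of exon on a log axis, grouped by role; each point is 1 library, coloured by genotype. Gas6, Axl and Calr have the highest wild type means (282, 267 and 227), and Atp8b5 is lowest in the wild type at 0.021.

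3 of the 4 Plscr genes lie near each other on chromosome 9, all on the plus strand, in the GRCm38 annotation. Plscr1 spans 92249750 to 92272278, Plscr2 92275602 to 92297752 and Plscr4 92457373 to 92492456. Other annotated genes lie between Plscr2 and Plscr4, but none of those is in the deposited tables. These Plscr genes are 22.8 to 23.0 Mb from Anxa2, which is on the same chromosome, as are Tmem30a (10.3 Mb from Anxa2) and Ano10 (52.8 Mb). Plscr3 is on chromosome 11. Atp11b lies 0.722 Mb from Anxa5 on chromosome 3, and its log2 difference in the ANXA5 knockout was 0.06. The promoters of Plscr1 and Plscr4 are shown because the log2 differences of these neighbours had opposite signs in the ANXA5 knockout. The signs were opposite in the ANXA2 knockout too (0.27 and -0.20), where the groups of both genes overlapped. The Plscr1 groups overlapped in the ANXA5 knockout as well, and a link between sequence and level was not tested. Each is the 250 bases before the start in RefSeq on GRCm38.p6, plus strand, 5′ to 3′, with matches to GGGCGG in capitals. RefSeq starts differ from the spans above: the Plscr1 window lies wholly inside the Plscr1 span, past the start given there. The Plscr4 window ends just inside the Plscr4 span.
Plscr1, chr9:92249944-92250193: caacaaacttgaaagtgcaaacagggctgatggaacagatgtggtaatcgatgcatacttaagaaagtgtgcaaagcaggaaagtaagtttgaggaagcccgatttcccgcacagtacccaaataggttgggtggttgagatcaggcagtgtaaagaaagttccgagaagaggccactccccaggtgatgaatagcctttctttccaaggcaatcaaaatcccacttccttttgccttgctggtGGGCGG
Plscr4, chr9:92457128-92457377: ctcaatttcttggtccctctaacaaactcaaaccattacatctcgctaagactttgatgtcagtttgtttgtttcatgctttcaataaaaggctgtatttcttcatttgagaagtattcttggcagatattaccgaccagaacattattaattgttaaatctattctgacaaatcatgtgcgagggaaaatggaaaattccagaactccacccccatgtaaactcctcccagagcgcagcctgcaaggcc
Both strands were searched for GGGCGG (the GC box) and TATAAA (the TATA box). The Plscr1 window held 1 GGGCGG at its end and no other match, and the Plscr4 window held neither. Of 32851 promoter windows of this length, 32.7% held GGGCGG and 12.4% TATAAA. The Plscr1 window had 5 CpG and the Plscr4 window 4, against a median of 6.

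In the ANXA2 knockout 33 of 42 genes tested stood somewhat above the wild type, and Plscr1 and Elmo1 had the smallest p. None of the 42 passed the limma threshold (adjusted p under 0.05), and Atp8b5 was below the filter on low values, with means of 2.29 against 3.55 normalised reads. edgeR and DESeq2 also called 0, and 0.112% of all 16123 genes were called by limma (18 genes). Plscr1 and Elmo1 had an unadjusted limma p under 0.05, which is 4.76% of 42 against 8.69% of all genes, while edgeR gave 0 and DESeq2 2 such genes. With Xist as a covariate 8 had such a p, 19.05% against 17.5% of all genes in that fit, and without wild type library 1 or 2 none did, against 6.21% and 4.48%. Without knockout library 3 there was 1, 2.38% against 5.94%. For 0 of the 42 did the knockout and wild type libraries lie apart, against 9.19% of all genes. The smallest adjusted limma p was 0.571.

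The log2 differences leaned to 1 side. Of 42, 33 lay above 0 (78.6%, against 54.1% of all genes), and the median was 0.14 against 0.02. The lean was uneven over libraries: the median deviation from the wild type mean was 0.31 in knockout library 1, 0.17 in library 3 and 0.00 in library 4, and -0.12, -0.07, 0.12 and 0.05 in wild type libraries 1 to 4. Knockout library 4 thus lay below wild type library 3. Without knockout library 4 the median was 0.24, against 0.02 for all genes in the same fit, and 6 genes had an unadjusted p under 0.05, which is 14.3% against 11.1% of all genes. Stromal markers summed to 394159, 449061, 764277 and 697638 in wild type libraries 1 to 4 and to 564452, 869764 and 680085 in knockout libraries 1, 3 and 4. The collagen genes Col1a1 and Col1a2 made up most of this sum. Their means were 243104 and 256555 in the wild type and 366321 and 261619 in the knockout. The sum was lower in wild type libraries 1 and 2, where the medians of the phosphatidylserine genes were lower too. In the knockout, however, the sum was lowest in library 1, where the median was highest. Knockout library 4 had the highest macrophage and neutrophil sums (155798 and 632479). The part of these in the result was not tested. The 95% interval lay within a 2-fold difference either way (a log2 of -1 to 1) for 34 genes, and it reached further for Ano1, Ano3, Ano4, Ano7, Xkr4, Xkr6, Timd4 and Atp11a.

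**Figure D2:**
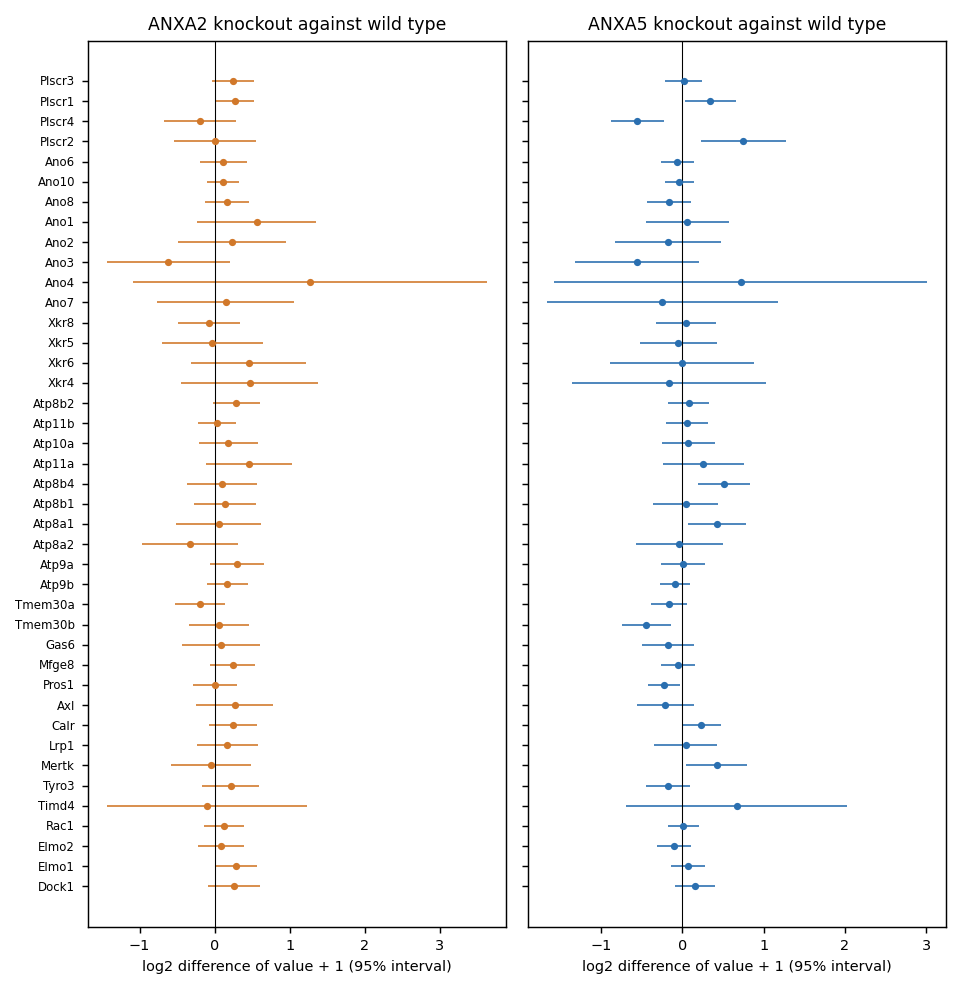
Log2 difference between knockout and wild type for 41 of the 42 genes tested, on the log2(value + 1) scale, with 95% intervals from limma (bars); the left panel is the ANXA2 and the right panel the ANXA5 knockout. On the left 33 points lie above 0 and on the right 21, and 0 genes pass the adjusted threshold in either panel.

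Of the Plscr scramblases in the ANXA2 knockout, 3 of 4 had a log2 difference above 0. Plscr1, an interferon-inducible membrane protein, had 1526, 1638 and 1887 in the knockout and 1320.1, 1326, 1544 and 1398 in the wild type (normalised reads, here and below listed for ANXA2 knockout libraries 1, 3 and 4 and wild type libraries 1 to 4). The groups met only at their edges, where wild type library 3 lay above knockout library 1. The log2 difference was 0.27 (95% interval 0.01 to 0.52, limma adjusted p = 0.571). Plscr3, found at mitochondria, had 2357, 2649 and 2290.1 in the knockout and 1816, 1876, 2183 and 2388 in the wild type, with wild type library 4 inside the knockout range. Its log2 difference was 0.24 (95% interval -0.04 to 0.52, limma adjusted p = 0.593). Plscr2 stood at 30.6 to 38.2 against 26.5 to 41.3 (log2 0.01) and Plscr4 at 1017 to 1633 against 1137 to 1983 (log2 -0.20).

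Of the 8 anoctamins, 7 lay above 0. Ano6, the calcium-activated scramblase, had 8792, 8076 and 6241 in the knockout and 6443, 6886, 7492 and 7379 in the wild type. Knockout libraries lay on both sides of the wild type, and the log2 difference was 0.12 (95% interval -0.20 to 0.43, limma adjusted p = 0.809). Ano1 was named after its values were seen. It had 1927, 809 and 649 in the knockout and 504, 715, 908 and 657 in the wild type, so that library 1 alone was above the wild type range. Its log2 difference was 0.56, and 0.09 without knockout library 1. Ano3 had 20.5, 27.5 and 25.5 in the knockout and 51.9, 40.6, 50.1 and 19.2 in the wild type. The knockout libraries lay low, but wild type library 4 was lower still, and the log2 difference was -0.62 (95% interval -1.44 to 0.21, limma adjusted p = 0.617). Ano8 and Ano10 had log2 differences of 0.16 and 0.11, and Ano2 and Ano7 of 0.23 and 0.15. Xkr8 had 149, 177 and 160.2 in the knockout and 141, 153, 178 and 219 in the wild type, entirely within the wild type range, with a log2 difference of -0.08 (95% interval -0.49 to 0.34, limma adjusted p = 0.914). Xkr4, Xkr5 and Xkr6 stood at 0.47, -0.03 and 0.45, from values of at most 63.3 normalised reads.

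Of 8 flippases described, 7 lay above 0. Atp8b2, the most abundant, had 6213, 6314 and 4862 in the knockout and 4138, 4426, 5217 and 5206 in the wild type. Libraries 1 and 3 were above every wild type library and library 4 was not, with a log2 difference of 0.29 (95% interval -0.03 to 0.60, limma adjusted p = 0.582). Atp11a, a plasma membrane flippase, had 4412, 4265 and 3447 in the knockout and 1904, 2576, 4203 and 3576 in the wild type. The wild type values spread more than 2-fold and covered knockout library 4, and the log2 difference was 0.46 (95% interval -0.11 to 1.03, limma adjusted p = 0.606). Atp8b4, Atp8b1, Atp8a1, Atp10a and Atp11b had log2 differences of 0.10, 0.14, 0.05, 0.18 and 0.03, and Atp8a2 of -0.32. The relative Atp9a had 2257, 2240.1 and 1721 in the knockout and 1362, 1541, 1951 and 1899 in the wild type, again with libraries 1 and 3 above the wild type. Its log2 difference was 0.30 (95% interval -0.06 to 0.66, limma adjusted p = 0.601), and that of Atp9b was 0.17. The subunit Tmem30a had 5135, 3994 and 3747 in the knockout and 5679.9, 4978, 4709 and 4200.3 in the wild type. Libraries 3 and 4 lay below the wild type and library 1 within it, with a log2 difference of -0.19 (95% interval -0.53 to 0.14, limma adjusted p = 0.686). Tmem30b stood at 0.06.

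Among bridging proteins, Mfge8, which links phosphatidylserine to integrins, was nearly constant in the wild type. It had 11330.3, 10333 and 8046 in the knockout and 8185, 8188, 8316 and 8443 in the wild type. Knockout libraries 1 and 3 were above and library 4 below that narrow range, and the log2 difference was 0.24 (95% interval -0.06 to 0.54, limma adjusted p = 0.604). Gas6 had 27876, 19231 and 14371 in the knockout and 23131, 16217, 19284 and 16661 in the wild type. Its knockout libraries lay above, within and below the wild type range, with a log2 difference of 0.08 (95% interval -0.44 to 0.61, limma adjusted p = 0.928), and of -0.16 without knockout library 1. Pros1, protein S, stood at 5493 to 7239 against 5757 to 7213 (log2 0.00). The receptor Axl had 50954, 46732 and 31020.5 in the knockout and 32300.5, 29041, 44964 and 34828 in the wild type. Libraries 1 and 3 were above every wild type library, library 4 was not, and the log2 difference was 0.27 (95% interval -0.24 to 0.78, limma adjusted p = 0.718). Calr had 21503, 20913 and 18400.4 in the knockout and 15241, 15599, 19553 and 18173 in the wild type, with knockout library 4 between wild type libraries. The log2 difference was 0.25 (95% interval -0.07 to 0.56, limma adjusted p = 0.612). Mertk, Tyro3, Lrp1 and Timd4 had log2 differences of -0.05, 0.21, 0.17 and -0.10.

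All 4 engulfment genes lay above 0. Elmo1, a scaffold of the exchange factor for Rac1, had 4363, 3325 and 3669.9 in the knockout and 2815, 2908, 3359.6 and 3311 in the wild type. Wild type library 3 exceeded knockout library 3, and the log2 difference was 0.28 (95% interval 0.00 to 0.57, limma adjusted p = 0.573). Dock1, the exchange factor itself, had 2784, 2400.0 and 1995 in the knockout and 1658, 1903, 2337 and 2089 in the wild type. Libraries 1 and 3 were the highest of the 7, and the log2 difference was 0.26 (95% interval -0.09 to 0.60, limma adjusted p = 0.617). Rac1 had 13792, 12095 and 10799 in the knockout and 11198, 10669, 11695 and 11071 in the wild type. Library 4 lay between wild type libraries, with a log2 difference of 0.13 (95% interval -0.15 to 0.40, limma adjusted p = 0.751). Elmo2 stood at 0.09.

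Several of these differences rested on single libraries. Without knockout library 1 the log2 difference was 0.13 for Axl, 0.14 for Dock1, 0.18 for Elmo1, 0.14 for Mfge8, 0.04 for Rac1, 0.01 for Ano6 and -0.33 for Tmem30a. Without knockout library 4 it was 0.49 for Axl, 0.39 for Mfge8, 0.21 for Rac1, 0.26 for Ano6, 0.87 for Ano1 and -0.10 for Tmem30a. Without wild type library 1 it was 0.25 for Atp11a, 0.07 for Ano6 and -0.12 for Tmem30a, and without wild type library 4 it was -0.93 for Ano3.

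**Figure D3:**
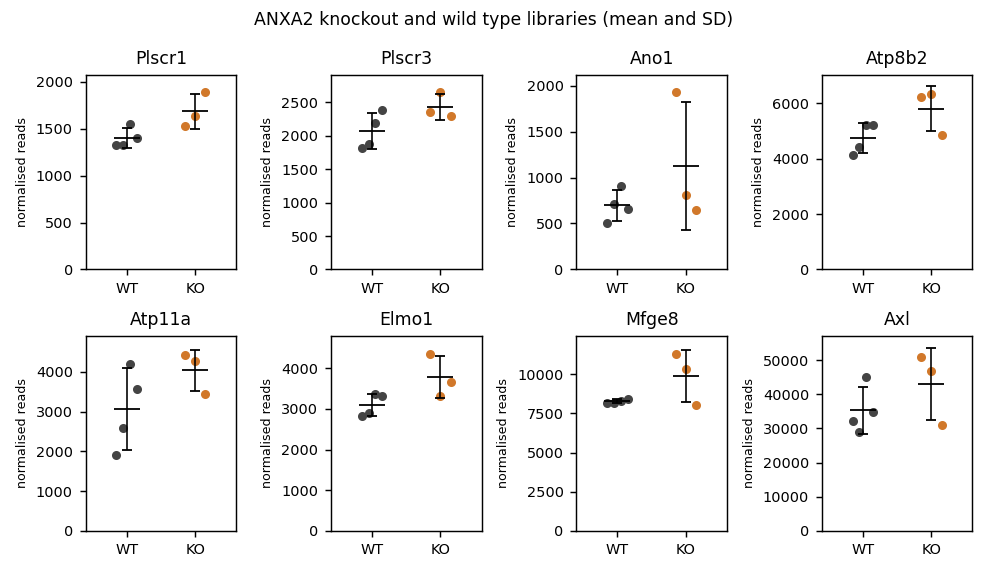
Normalised reads of 8 genes in each ANXA2 knockout (KO, n = 3) and wild type (WT, n = 4) library; points are libraries, and the horizontal bar and whiskers give mean and SD. In all 8 panels the groups overlap, and knockout library 1 of Ano1 stands at 1927 against at most 908 in the wild type.

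A list of 48 other genes of phosphatidylserine synthesis, recognition and engulfment held 47 tested genes in each comparison. In the ANXA2 knockout 0 passed limma, 6 had an unadjusted p under 0.05 (4 higher and 2 lower, or 12.8% against 8.69% of all genes), 28 lay above 0 and the median was 0.05. The smallest p belonged to Gulp1, an engulfment adaptor, at 887 ± 111 against 1207 ± 248 normalised reads, a log2 difference of -0.43 (limma adjusted p = 0.564). Socs1 and Socs3, inhibitors of cytokine signalling that TAM receptors can induce, followed. Socs1 stood at 4786 ± 1504 against 3207 ± 774 normalised reads, a log2 difference of 0.56 (limma adjusted p = 0.565), and Socs3 at 54626 ± 20178 against 32942 ± 11228 normalised reads, a log2 difference of 0.72 (limma adjusted p = 0.569).

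In the ANXA5 knockout no member passed the limma threshold, and 4 of them had groups that lay apart: Plscr4, Tmem30b and Pros1 were lower and Atp8a1 was higher in every knockout than in every wild type library. Of 42 tested genes (Atp8b5 was again under the filter, with means of 2.60 against 3.89), 21 lay above 0 and 21 below, with a median of 0.00 against 0.01 for all genes. limma and edgeR called 0 of 42, and limma called 0.0308% of all 16224 genes (5 genes). DESeq2 called 1, Plscr4, among 277 of 16404 genes (1.69%), and so did the authors' deposited table, with 281 of 15949 genes (1.76%). An unadjusted limma p under 0.05 was found for 8 genes (19.0%, against 11.9% of all genes), 5 higher and 3 lower, and edgeR gave 8 and DESeq2 9. The 4 genes with separate groups are 9.52% of 42 against 6.37% of all genes. Without knockout library 4 the number with an unadjusted p under 0.05 was 4 (9.52%, against 7.78% of all genes). Without wild type library 1 or 2 it was 5 (11.9%, against 8.17% and 9.16%). With a replicate block from the shared numbers of the titles it was 5 too (11.9%, against 11.2%). It was 9 (21.4%, against 17.4%) with Xist as a covariate and 10 (23.8%, against 11.3%) without wild type library 3. The smallest adjusted limma p was 0.245. The interval lay within a 2-fold difference for 36 genes, and it reached further for Plscr2, Ano3, Ano4, Ano7, Xkr4 and Timd4.

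The neighbouring Plscr genes had log2 differences of both signs. Plscr4 had 1147, 1087, 1133 and 1199.6 in the knockout and 2169, 1784, 1632 and 1247 in the wild type (normalised reads, here and below listed for ANXA5 knockout libraries 1 to 4 and wild type libraries 1 to 4). The knockout libraries lay close together and below all wild type libraries, which themselves ran over a 1.74-fold range. The log2 difference was -0.55 (95% interval -0.88 to -0.23, limma adjusted p = 0.245). DESeq2 gave -0.59 with an adjusted p of 0.0273, and the authors' deposited table gave -0.58 with an adjusted p of 0.0300. As the groups lay apart, knockout libraries were necessarily below the wild type within the libraries of high Xist and within those of low Xist. A split by Xist therefore adds nothing here, and knockout library 2 was the only knockout library with low Xist.

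Plscr1 had 1802, 2267, 1498 and 2336 in the knockout and 1444, 1451, 1705 and 1533 in the wild type. Libraries 1, 2 and 4 were above every wild type library, library 3 was not, and the log2 difference was 0.35 (95% interval 0.03 to 0.66, limma adjusted p = 0.380). Plscr2, between the other 2 on the chromosome, had 43.7, 70.5, 57.6 and 81.9 in the knockout and 29.0, 35.4, 37.3 and 45.2 in the wild type. Only knockout library 1 lay inside the wild type range, and the log2 difference was 0.75 (95% interval 0.23 to 1.28, limma adjusted p = 0.307). Plscr3, on another chromosome, had 2273, 2123, 2373 and 2349 in the knockout and 1986, 2053, 2412 and 2618 in the wild type, with a log2 difference of 0.02 (95% interval -0.21 to 0.24, limma adjusted p = 0.958). The knockout libraries of Plscr3 lay within the wild type range.

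Of 8 anoctamins, 2 lay above 0. Ano6 had 7207, 7089.7, 7028 and 8405 in the knockout and 7046, 7537, 8275 and 8091 in the wild type, and its groups overlapped, with a log2 difference of -0.06 (95% interval -0.27 to 0.15, limma adjusted p = 0.810). Ano10, Ano8 and Ano1 stood at -0.04, -0.16 and 0.06, and Ano2, Ano3 and Ano7 at -0.17, -0.56 and -0.24. Xkr8 had 233, 179, 197 and 169 in the knockout and 154, 168, 197 and 239.9 in the wild type. The knockout libraries stayed within the wild type range, and the log2 difference was 0.05 (95% interval -0.33 to 0.42, limma adjusted p = 0.923). Xkr4, Xkr5 and Xkr6 stood at -0.16, -0.05 and 0.00.

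Of 8 flippases described, 7 lay above 0, while both subunits lay below. Atp8b4 had 2042, 2779, 2249 and 2878 in the knockout and 1489, 1647, 1694 and 2156 in the wild type. Only wild type library 4 reached into the knockout range, and the log2 difference was 0.51 (95% interval 0.19 to 0.83, limma adjusted p = 0.273). Atp8a1, a flippase of phosphatidylserine, had 1564, 1531, 1587 and 1949.7 in the knockout and 877, 1243, 1494 and 1380.3 in the wild type. The groups were apart by a narrow margin, 1531 in the lowest knockout against 1494 in the highest wild type library, and the log2 difference was 0.43 (95% interval 0.07 to 0.79, limma adjusted p = 0.353). Atp11a, Atp10a, Atp11b, Atp8b1 and Atp8a2 stood at 0.26, 0.07, 0.06, 0.04 and -0.03. Atp8b2 had 5956, 4977, 4969 and 6120.2 in the knockout and 4526, 4844, 5762 and 5708 in the wild type, with overlapping groups and a log2 difference of 0.08 (95% interval -0.17 to 0.33, limma adjusted p = 0.785). Tmem30b had 544, 504, 423 and 486 in the knockout and 642, 552, 842 and 642 in the wild type. The knockout libraries were all below the wild type, by a margin of 544 to 552 at the nearest, and the log2 difference was -0.44 (95% interval -0.75 to -0.13, limma adjusted p = 0.305). Tmem30a had 4569, 5051, 4515 and 4908 in the knockout and 6212, 5449, 5201 and 4606 in the wild type. Wild type library 4 was among the knockout values, and the log2 difference was -0.17 (95% interval -0.39 to 0.06, limma adjusted p = 0.524). Atp9a had 1938, 1758, 1767 and 1919 in the knockout and 1490.1, 1687, 2154 and 2082 in the wild type, within the wild type range, with a log2 difference of 0.01 (95% interval -0.26 to 0.28, limma adjusted p = 0.980), and Atp9b stood at -0.09.

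All 3 bridging proteins lay below 0. Pros1 had 6266, 6025, 5633 and 5939 in the knockout and 7889, 6983, 6699 and 6313 in the wild type. The groups did not overlap, and the log2 difference was -0.22 (95% interval -0.42 to -0.02, limma adjusted p = 0.377). Gas6 had 20776, 16848, 15564 and 19643 in the knockout and 25297, 17750.4, 21298 and 18269.5 in the wild type. Knockout libraries 1 and 4 were within the wild type range and libraries 2 and 3 below it, with a log2 difference of -0.18 (95% interval -0.50 to 0.14, limma adjusted p = 0.628). Mfge8 stood at 7529.7 to 9640.0 against 8951 to 9258 (log2 -0.06). Of the receptors, Mertk, the TAM kinase of macrophages, had 456, 333, 360.4 and 416 in the knockout and 214, 294, 355 and 315 in the wild type. Libraries 1, 3 and 4 were above every wild type library, and the log2 difference was 0.42 (95% interval 0.05 to 0.79, limma adjusted p = 0.374). Axl had 37365, 33718, 28526 and 33408 in the knockout and 35326, 31787, 49660.3 and 38191 in the wild type, with knockout library 3 lowest and wild type library 3 highest, and a log2 difference of -0.21 (95% interval -0.56 to 0.14, limma adjusted p = 0.605). Tyro3 stood at -0.18, Lrp1 at 0.04 and Timd4 at 0.67. Calr had 22529.5, 21689, 21459.8 and 22305 in the knockout and 16668, 17074, 21596 and 19928 in the wild type. Only wild type library 3 reached the knockout range, and the log2 difference was 0.23 (95% interval -0.01 to 0.48, limma adjusted p = 0.433). Rac1 had 12338, 12507, 11345 and 13293 in the knockout and 12246, 11678, 12917 and 12139 in the wild type, with a log2 difference of 0.01 (95% interval -0.18 to 0.21, limma adjusted p = 0.958), and Elmo1, Elmo2 and Dock1 stood at 0.07, -0.10 and 0.16. Without wild type library 1 the log2 difference was 0.27 for Atp8a1, 0.28 for Mertk, -0.07 for Gas6 and -0.09 for Tmem30a, and without wild type library 3 it was -0.08 for Axl.

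**Figure D4:**
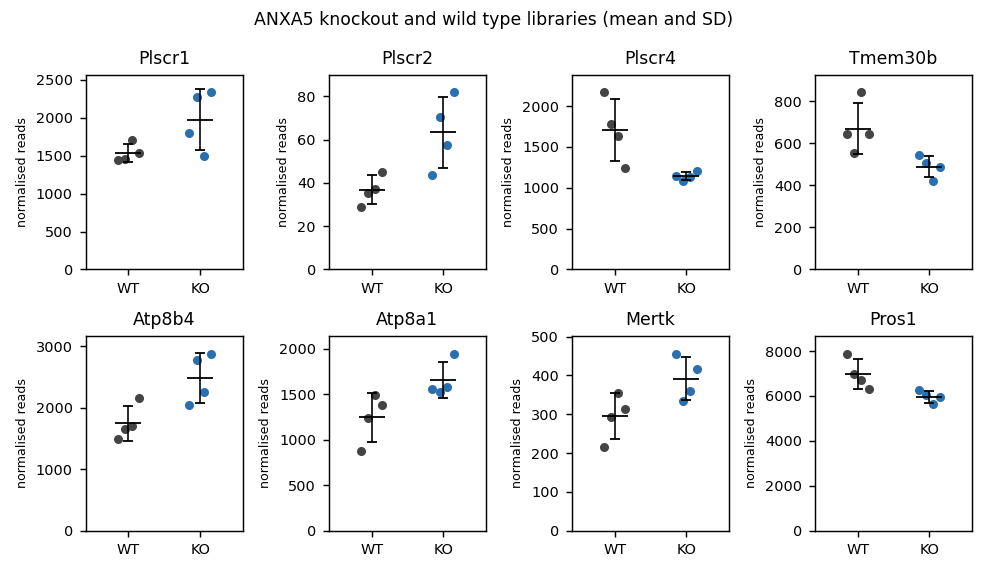
Normalised reads of 8 genes in each ANXA5 knockout (KO, n = 4) and wild type (WT, n = 4) library; points are libraries, and the horizontal bar and whiskers give mean and SD. Plscr4, Tmem30b and Pros1 knockout libraries all lie below, and Atp8a1 knockout libraries all above, the wild type libraries.

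Markers of macrophages stood higher in the ANXA5 knockout beside these genes. All 12 lay above 0, 9 (75%, against 11.9% of all genes) with an unadjusted limma p under 0.05 and 0 past the adjusted threshold, and they summed to 118999 to 149294 normalised reads against 85223 to 129251, none of them at 0. Of 8 endothelial markers 7 had an unadjusted p under 0.05 (6 higher, 1 lower), with a sum of 5101 to 7988 against 4058 to 5829. The 6 higher ones had log2 differences of 0.90 to 1.75. The lower was Tek, at 1734 ± 143 against 2481 ± 666 normalised reads (log2 -0.48). Tek had the highest mean of the 8 in both groups, so it weighs most in the sum. B and plasma cell, erythroid and megakaryocyte markers had 2 of 6, 1 of 5 and 1 of 4 with an unadjusted p under 0.05, all higher. Neutrophil markers had 2 of 8, Elane and Mpo, with all 8 above 0, and stromal markers 2 of 12, Vcam1 and Runx2, again all higher. In the ANXA2 knockout, the macrophage sum was 80702 to 155798 against 77924 to 117871, with 1 of 12 markers at such a p, and the endothelial sum was 3836 to 5601 against 3707 to 5278, with 0 of 8. B and plasma cell markers there had 3 of 6, with Jchain and Igkc higher and Ms4a1 lower. Stromal, neutrophil, erythroid and megakaryocyte markers had 1 of 12 (Thy1, higher), 0 of 8, 0 of 5 and 0 of 4. The share of all genes with such a p in that comparison was 8.69%. The part of these cells in the values of Atp8b4, Atp8a1 and Mertk was not tested.

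Of the 47 other pathway genes in the ANXA5 knockout, 0 passed limma and 12 had an unadjusted p under 0.05 (10 higher, 2 lower), which is 25.5% against 11.9% of all genes, with 26 above 0 and a median of 0.04. The smallest p belonged to the scavenger receptor Scarf1, at 268 ± 41.7 against 160.1 ± 39.9 normalised reads, a log2 difference of 0.76 (limma adjusted p = 0.230). Gulp1 stood at 937 ± 63.2 against 1324 ± 269 normalised reads, a log2 difference of -0.48 (limma adjusted p = 0.272). C1qa, a complement protein that coats dying cells and is itself in the macrophage marker list, stood at 566 ± 120.4 against 387 ± 18.9 normalised reads, a log2 difference of 0.52 (limma adjusted p = 0.284). C1qb and C1qc, which are in both lists too, also had an unadjusted limma p under 0.05. These C1q genes are therefore counted both here and among the macrophage markers above.

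The knockouts were then set against each other on reads recovered from both tables, in 1 edgeR fit of all 11 libraries. None of the 42 genes passed in edgeR or DESeq2, and edgeR called 0.259% of 16959 genes (44 genes). An unadjusted edgeR p under 0.05 was found for 9 genes (21.4%, against 13.9% of all genes), 7 higher and 2 lower in the ANXA2 knockout, and DESeq2 gave 10. This number depended on single libraries, and so did the share over all genes. It was 18 (42.9%, against 21.5% of all genes) without ANXA2 knockout library 4 and 2 (4.76%, against 7.08%) without ANXA2 knockout library 1. It was 5 (11.9%, against 10.9%) without ANXA2 knockout library 3, and 6 (14.3%, against 11.2%) and 4 (9.52%, against 11.3%) without ANXA5 knockout libraries 2 and 3. The smallest p belonged to Tmem30b, with 29.4, 23.1 and 19.9 CPM in ANXA2 knockout libraries 1, 3 and 4 and 19.0, 17.6, 14.8 and 16.6 in ANXA5 knockout libraries 1 to 4. The ANXA2 knockout values were all higher, and the log2 difference was 0.50 (edgeR adjusted p = 0.216). Plscr2 had 1.19, 1.44 and 1.16 CPM in ANXA2 knockout libraries 1, 3 and 4 and 1.52, 2.46, 2.02 and 2.81 in ANXA5 knockout libraries 1 to 4. Here only ANXA5 knockout library 1 came near the ANXA2 knockout, and the log2 difference was -0.80 (edgeR adjusted p = 0.221). The others higher in the ANXA2 knockout at that level were Tyro3 (0.39), Axl (0.49), Atp9b (0.25), Ano8 (0.31), Mfge8 (0.30) and Atp9a (0.29). Mertk was lower, with 6.91, 11.8 and 11.1 CPM in ANXA2 knockout libraries 1, 3 and 4 and 15.9, 11.6, 12.6 and 14.3 in ANXA5 knockout libraries 1 to 4. The groups overlapped, and the log2 difference was -0.45 (edgeR adjusted p = 0.352). For Plscr4 the log2 difference was 0.37 (edgeR adjusted p = 0.376). Single libraries moved these values too: without ANXA2 knockout library 1 the log2 differences were 0.22 for Plscr4, -0.25 for Mertk, 0.19 for Mfge8 and 0.15 for Atp9b, and without ANXA2 knockout library 3 that of Tyro3 was 0.25.

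Ano4, an anoctamin of low level, is set beside Xist here. It had 3.37, 1.96, 0.220 and 0.147 CPM in wild type libraries 1 to 4, 4.29, 1.38 and 0.931 in ANXA2 knockout libraries 1, 3 and 4, and 1.87, 0.217, 2.38 and 1.96 in ANXA5 knockout libraries 1 to 4. The 3 lowest values, in wild type libraries 3 and 4 and ANXA5 knockout library 2, belonged to the 3 libraries with Xist under 0.1 CPM. Xist in the same order was 70.1, 76.3, 0.0441 and 0.0368, then 24.7, 8.53 and 7.72, then 27.3, 0.0723, 58.8 and 18.1. The log2 difference of Ano4 was 1.27 (95% interval -1.09 to 3.63, limma adjusted p = 0.710) in the ANXA2 and 0.72 (95% interval -1.57 to 3.01, limma adjusted p = 0.787) in the ANXA5 knockout. With Xist as a covariate it was 0.40 and 0.11, and with each library left out in turn it ran from 0.59 to 1.99 and from 0.04 to 1.49. Ano4 was named after its values were seen.

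Atp8b4 had 52.2, 57.5, 58.0 and 75.3 CPM in wild type libraries 1 to 4, 47.7, 62.8 and 87.7 in the ANXA2 knockout and 71.2, 96.9, 78.9 and 98.6 in the ANXA5 knockout. The macrophage markers summed to 2988, 3247, 3421 and 4515, to 3060.3, 3957 and 5920.2 and to 4652, 5204, 4175 and 5017 CPM in the same libraries. In the wild type and ANXA2 knockout both were highest in library 4. In the ANXA5 knockout Atp8b4 was highest in libraries 2 and 4, which also had the 2 highest sums. Neutrophil markers ran alike: their sum was highest in library 4 of the wild type (19216 CPM) and of the ANXA2 knockout (24034 CPM) and in libraries 2 and 4 of the ANXA5 knockout (20871 and 18536 CPM). A single gene, Lyz2, which neutrophils also express, made up 74.96% to 82.8% of the macrophage sum over the 11 libraries. Mertk had other ranks. In the ANXA5 knockout it was lowest in library 2 (11.6 CPM), where the macrophage sum was highest. In the wild type and ANXA2 knockout it was highest in library 3 (12.2 and 11.8 CPM), not in library 4.

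**Figure D5:**
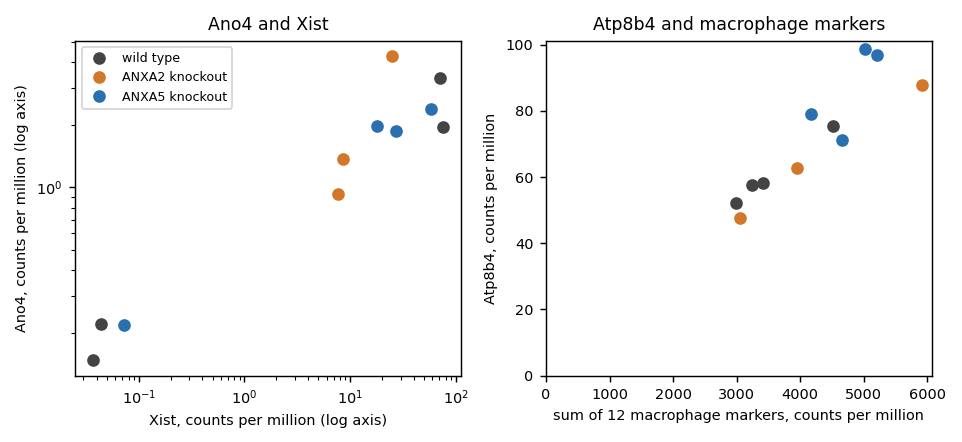
Left, Ano4 against Xist, both in CPM on log axes; right, Atp8b4 against the sum of 12 macrophage markers, in CPM on axes from 0. Each point is 1 of 11 libraries, coloured by genotype; the 3 libraries with Xist under 0.1 have the 3 lowest Ano4 values.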

How the data were processed

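RNA of primary mesenchymal stromal cells from mouse bone marrow (11 libraries) was analysed from 2 deposited tables, each with 1 knockout and the same wild type libraries. Reads had been handled with Trim Galore, STAR, HTSeq and DESeq2 on GRCm39, per the submitters' processing notes; the sources used here give no versions. The signal of each gene in the tables the authors deposited is its read count divided by a size factor of the library, called normalised reads here. Multiplied by that factor, 100% of values were whole reads within 0.001. From the columns the authors deposited for their own DESeq2 test, per the file headers log2 fold changes and p-values (raw and adjusted), values were only quoted. The score column the authors deposited, a test statistic, was opposite in sign to the fold changes and was not used. 0 sample columns were left out.

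The test was limma-trend (limma 3.58.1, R 4.3.3) on log2(value + 1), a scale that understates changes of low genes, over every gene that reached 10 in a number of libraries equal to the smaller group, two-sided with Benjamini-Hochberg adjustment over all of them. The knockouts were compared by edgeR 4.0.16 on recovered reads (TMM, quasi-likelihood, genes with at least 10 reads in 3 libraries). Alternatives were DESeq2 1.42.0, edgeR, TMM scaling, pseudocounts of 0.5 and 5, no filter, a minimum of 50, Xist as a covariate, a replicate block, and each library left out. Genes given in every library were those called, those whose groups lay apart at a mean of 50 or more, the 10 of smallest p in each comparison and the most abundant of each role, plus Ano1 and Ano4. Of other pathway genes the 3 of smallest p were named. The members and lists were chosen with earlier results of these data known. Simulated tables had 200 changed genes, and the spread in all groups was that of the wild type libraries. There limma found 54% of 2-fold and 93% of 4-fold changes in the ANXA2 layout (16045 genes, 9 false calls). In the ANXA5 layout it found 66% and 94% (16075 genes, 9 false calls). Between the knockouts edgeR found 66% and 98% (16034 genes, 15 false calls). Where knockout libraries spread more than the wild type, these shares may be too high, and smaller changes were not simulated.

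ANXA2 knockout libraries carry the numbers of their columns (1, 3 and 4), which differ from the titles. Positions and exon lengths came from GENCODE vM21 on GRCm38, not the submitters' build. RefSeq promoters on GRCm38.p6 matched 32 of 43 members. Values of 1 member, which is included in counts and medians over the members, are not reported here.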

Additional observations from a re-analysis of the deposited data

Results flagged for a closer look

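In 5 groups of 4 libraries, 1 library stood far from the other 3, by Dixon's test, at its 95% critical value. The test was run on 84 groups (5.95% exceeded it), and chance alone gives about 1 in 20. Tyro3 stood at 445.0 normalised reads in wild type library 3 beside 333 to 346 in the 3 remaining ones. Ano2 stood at 57.0 in ANXA5 knockout library 2 against 36.0 to 39.6 in the others. The remaining 3 values were from ANXA5 knockout library 4: Atp8a1 stood at 1949.7 against 1531 to 1587, Elmo2 at 4111 against 3459 to 3552 and Ano6 at 8405 against 7028 to 7207. Atp8a1 knockout libraries 1 to 3 also lay above the highest wild type library, at 1494.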

How the results depend on the processing

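The count of phosphatidylserine genes called was 0 under every alternative run in all 3 comparisons, apart from DESeq2 in the ANXA5 knockout, which called 1 (Plscr4, log2 -0.59, adjusted p = 0.0273). Of 708 log2 differences of named genes under alternatives, 688 kept direction and side, 1 passed the threshold (Plscr4), and 19 turned direction, all from small differences. Among the last, Xkr8 in the ANXA2 knockout was 0.0254 with Xist as a covariate, and Atp9a in the ANXA5 knockout was -0.0126 with edgeR and -0.00897 with DESeq2. With each library left out in turn, the log2 differences in the ANXA2 knockout ran from -0.167 to 0.0431 for Xkr8 and from -0.165 to 0.313 for Gas6. In the ANXA5 knockout they ran from -0.0905 to 0.0867 for Atp9a, -0.136 to 0.204 for Ano1, -0.0448 to 0.0881 for Plscr3, -0.0463 to 0.165 for Xkr8 and -0.0220 to 0.0542 for Rac1. The cause was not tested. Over all genes, limma called 18 in the ANXA2 knockout, DESeq2 110, and limma with Xist as a covariate 284; without knockout library 3 the count was 8, without wild type library 2 it was 11 and without wild type library 4 it was 10. In the ANXA5 knockout limma called 5 and DESeq2 277, and the count was 32 without wild type library 4 and 8 without knockout library 3. Between the knockouts edgeR called 44, DESeq2 401 and edgeR with Xist as a covariate 67, and 19 to 38 without single knockout libraries.

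With a replicate block from the shared numbers of the titles, 0 phosphatidylserine genes passed in the ANXA5 knockout and 8 genes in all, against 5 without it. Same-numbered ANXA5 knockout and wild type libraries correlated in their deviations from the group means at 0.05, -0.07, -0.25 and 0.07. An unmatched pair, wild type library 2 and knockout library 3, reached 0.25. Whether libraries of the same number were prepared together cannot be read from these correlations, and the labels do not say. No block was fitted for the ANXA2 knockout, whose columns do not carry the numbers of the titles. The precision is set by 3 or 4 libraries a group: the median 95% interval reached 0.41 to either side in the ANXA2 and 0.32 in the ANXA5 knockout on the log2 scale, and genes of few reads had wider ones.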
